A study of Arabidopsis thaliana with 12 samples.

Results

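Unenriched poly(A) RNA of Arabidopsis seedlings was read molecule by molecule with the tagging enzyme ADPRC (adenosine diphosphate ribosylcyclase) in 3 libraries and without it in 1 library. These 4 libraries were taken from the 12 of the series by their labels, which give poly(A) RNA without enrichment and the presence or absence of ADPRC. No library of this set passed through the selection of tagged molecules that the other poly(A) libraries had, so the reads sample unselected poly(A) RNA. All plants were untreated Col-0 seedlings, 12 days old, grown on MS medium with sucrose at 23 °C under 16 h of light and 8 h of dark. The labels give no difference between the 4 libraries other than the enzyme, and they do not say that the replicates came from separate cultures. The p-values below therefore cover no more than the spread of these samples, and that spread may be technical. The library without ADPRC has no replicate.

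Some eukaryotic transcripts start with NAD+ in the place of the usual 7-methylguanosine cap. ADPRC exchanges the nicotinamide of that NAD+ for a reactive group, to which a synthetic RNA tag can be joined, and reading of whole RNA molecules through a nanopore then shows tag and transcript in the same read. The library without the enzyme serves as the control of the reaction. In a green seedling a large part of the messenger RNA encodes the photosynthetic machinery: antenna proteins that bind chlorophyll and catch light, the subunits of photosystem I and II that turn light into electron flow, and the enzymes of the Calvin cycle that fix carbon. Most of these proteins are encoded in the nucleus and imported into the chloroplast.

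The libraries with ADPRC held 378322, 619122 and 559608 reads assigned to genes in replicates 1, 2 and 3, and the library without it held 434742. Levels are given as CPM, the reads of a gene per 1000000 reads of the library. They were not divided by transcript length, since in direct RNA sequencing a molecule gives 1 read whatever its length. Where a gene had 0 reads, up to 3 could have been missed by counting error alone, a limit of 4.85 to 7.93 CPM with ADPRC and of 6.90 CPM without it. A read was found for 15504, 16960 and 16844 genes with ADPRC and for 15864 without it. At an equal depth of 378322 reads these numbers become 15504, 15476 and 15619 with ADPRC and 15410 without it. The control thus had the lowest number of the 4 at equal depth. Of the 19772 genes with a read in any of the 4 libraries, 12671 had one in all of them.

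The reads were concentrated on few genes. The 20 genes with most reads took 20.7%, 21.5% and 21.4% of all reads with ADPRC and 22.2% without it. It took 193, 181 and 179 genes to reach 50% of all reads with ADPRC, and 157 genes without it. The control thus needed fewer genes for this share than any library with ADPRC. A mean level over the 4 libraries of 1000 CPM or more was found for 115 genes, of 100 CPM or more for 1310 and of 10 CPM or more for 8244. Protein-coding genes took 97.6%, 97.7% and 97.7% of reads with ADPRC and 97.7% without it.

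The most abundant transcript was that of CAB1 (AT1G29930, which overlaps AT1G29940), an antenna protein of photosystem II, with 23699, 25533 and 24038 CPM with ADPRC and 24753 CPM without it. RBCS1A (AT1G67090), a small subunit of the carbon-fixing enzyme Rubisco, followed with 15590, 18995 and 18075 CPM with ADPRC and 17155 CPM without it. For both genes the control lay within the range of the 3 libraries with ADPRC. RBCS3B (AT5G38410), another small subunit gene, had 13642, 14545 and 15230 CPM with ADPRC and 15538 CPM without it. RCA (AT2G39730, which overlaps AT2G39725) encodes the activase that keeps Rubisco working and had 10843, 10998 and 10974 CPM with ADPRC and 11448 CPM without it. In these 2 genes the control lay above all 3 libraries with ADPRC. Over the 20 genes with the highest mean the control lay above all 3 in 10 genes, within their range in 9 and below them in 1. Over the 8205 genes tested below it lay above in 24.5% and below in 26.5%, and over the 115 genes at 1000 CPM or more above in 40% and below in 9.57%. The gene with the control below was TCTP (AT3G16640), which encodes the translationally controlled tumour protein, with 8522, 7574 and 7462 CPM with ADPRC and 7335 CPM without it. None of the 20 genes passed the test across all genes that is given below.

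**Figure D1:**
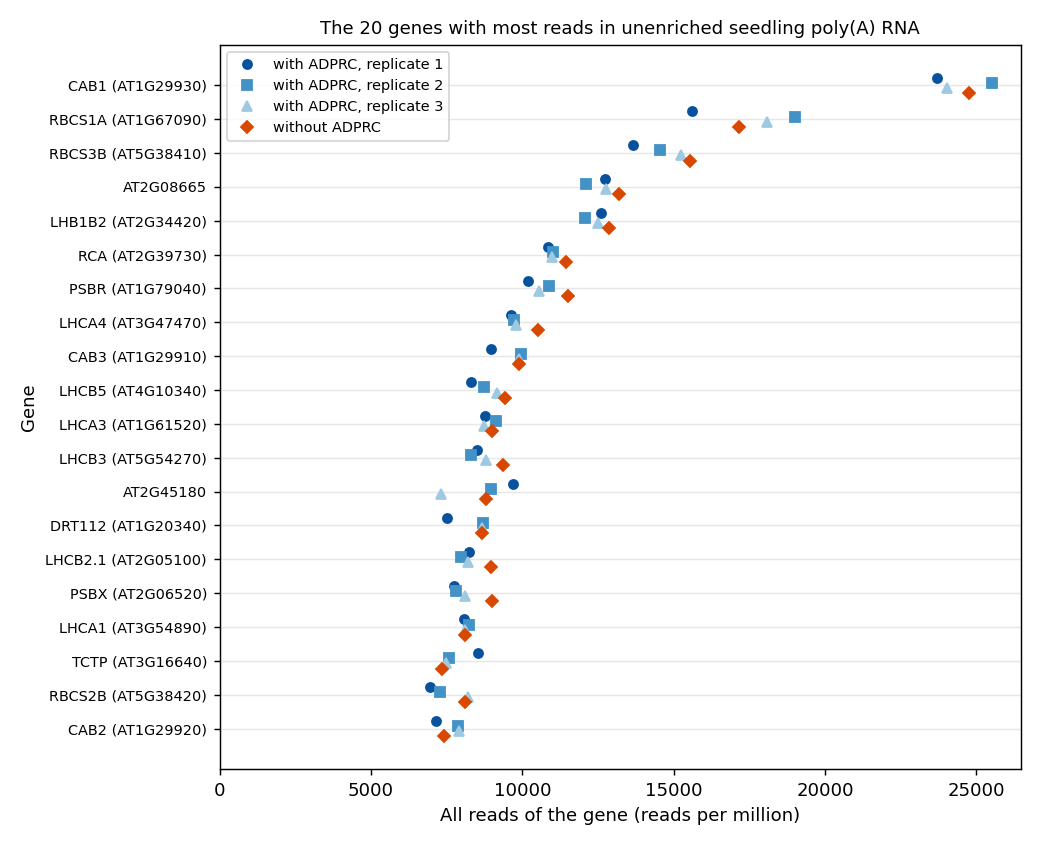
All reads of the 20 genes with the highest mean over the 4 libraries, in CPM on a linear axis. Each symbol is 1 library, with the 3 libraries with ADPRC in blue and the library without it in orange. CAB1 stands at 23699 to 25533 CPM, and the control lies above all 3 libraries with ADPRC in 10 of the 20 genes, against 24.5% of all genes tested and 40% of those at 1000 CPM or more.

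Of the 20 most abundant genes of each library 18 were shared by all 4, and of the 100 most abundant 93 were. The 5 genes with the highest mean had the same order in each library, and below them the order varied. Of the 20 genes 17 belong to the lists of antenna, photosystem and Calvin cycle genes. The other 3 were TCTP, AT2G45180 and AT2G08665. AT2G45180, a gene of the lipid transfer protein family, had 9690, 8953 and 7305 CPM with ADPRC and 8803 CPM without it. AT2G08665 is annotated as a long noncoding RNA that overlaps the antenna gene LHB1B2 (AT2G34420). It had 12740, 12114 and 12764 CPM with ADPRC and 13192 CPM without it, while LHB1B2 had 12606, 12064 and 12500 CPM with ADPRC and 12867 CPM without it. The read numbers of these 2 genes differed by at most 2.46% in any library. Of 16 overlapping pairs with both genes at 100 CPM or more, no other pair came within 10% in all 4 libraries. How reads of overlapping genes were assigned is not given in the sources used here, so these values cannot be told apart. In all, 7 of the 20 genes overlap another listed gene.

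The antenna, photosystem and Calvin cycle lists, with 76 genes together, held 31.3%, 32.9% and 33.2% of all reads with ADPRC and 34.3% without it. They supplied 38 of the 50 most abundant genes. The control lay above the 3 libraries with ADPRC, by less than the difference of the highest and lowest of them. By 3 libraries against 1 no exact permutation test can go below p = 0.25, so these shares were not tested.

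The 20 antenna genes held 13.7% ± 0.264 of reads with ADPRC (SD, n = 3) and 14.4% without it. After CAB1 and LHB1B2 the antenna of photosystem I came next, with LHCA4 (AT3G47470, which overlaps AT3G47460) at 9629, 9735 and 9778 CPM with ADPRC and 10530 CPM without it. The minor antenna gene LHCB5 (AT4G10340) had 8305, 8724 and 9147 CPM with ADPRC and 9442 CPM without it. In both genes the control lay above the libraries with ADPRC. At the other end stood LHCB4.3 (AT2G40100), with 15.9, 29.1 and 17.9 CPM with ADPRC and 9.20 CPM without it, so that levels within the antenna list ran over more than 3 orders of magnitude.

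The 34 nuclear photosystem and electron transport genes held 11.8% ± 0.326 of reads with ADPRC (SD, n = 3) and 12.8% without it. PSBR (AT1G79040, which overlaps AT1G79050), a small subunit of photosystem II, led the list with 10182, 10870 and 10559 CPM with ADPRC and 11515 CPM without it. The plastocyanin gene DRT112 (AT1G20340), whose protein carries electrons to photosystem I, had 7525, 8714 and 8652 CPM with ADPRC and 8676 CPM without it. PSBX (AT2G06520), of photosystem II, had 7753, 7798 and 8095 CPM with ADPRC and 9008 CPM without it. For DRT112 the control lay within the libraries with ADPRC, and for PSBR and PSBX above them.

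The 22 Rubisco and Calvin cycle genes held 6.89% ± 0.412 of reads with ADPRC (SD, n = 3) and 7.10% without it, which lies within the 3 libraries. Replicate 1 with ADPRC was the lowest of the 4 libraries at 6.42%. Among the Calvin cycle enzymes beyond Rubisco, the aldolase gene FBA2 (AT4G38970) had 3595, 3789 and 3863 CPM with ADPRC and 4113 CPM without it. The 14 photorespiration genes, whose products recycle the phosphoglycolate that Rubisco makes from oxygen, held 1.37% ± 0.0263 of reads with ADPRC and 1.42% without it. The catalase gene CAT2 (AT4G35090, which overlaps AT4G35080) had 2392, 2043 and 2134 CPM with ADPRC and 2231 CPM without it. GGT1 (AT1G23310), a peroxisomal aminotransferase gene, had 1967, 1920 and 2023 CPM with ADPRC and 2105 CPM without it. GOX1 (AT3G14420), a glycolate oxidase gene, had 1824, 1935 and 1923 CPM with ADPRC and 1918 CPM without it. CAT2 and GOX1 had the control within the libraries with ADPRC and GGT1 had it above them.

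Within gene families the split of reads between copies was close in the 2 groups. RBCS1A gave 42.0% ± 1.77 of the reads of the 4 Rubisco small subunit genes with ADPRC (SD, n = 3) and 39.9% without it. RBCS3B gave 34.7% ± 0.989 with ADPRC and 36.1% without it, RBCS2B (AT5G38420) 17.9% with ADPRC and 18.8% without it, and RBCS1B (AT5G38430) 5.45% with ADPRC and 5.13% without it. CAB1 gave 42.6% of the reads of the 5 LHCB1 antenna genes with ADPRC and 42.2% without it. Of the plastocyanin pair DRT112 gave 95.6% with ADPRC and 95.7% without it, and PETE1 (AT1G76100) the rest. Of the 2 ferredoxin genes FED A (AT1G60950) gave 82.0% with ADPRC and 81.0% without it. Reads of near-identical copies may be exchanged between them, so single values within such families are uncertain.

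In the protein synthesis lists the control lay on the other side from that in the antenna and photosystem lists. The 18 genes of the translation factor list, TCTP among them, held 1.42%, 1.36% and 1.33% of reads with ADPRC and 1.26% without it. Most of this share came from the single gene TCTP, with 8522, 7574 and 7462 CPM with ADPRC and 7335 CPM without it. The 39 cytosolic ribosomal protein genes held 0.896%, 1.04% and 0.947% with ADPRC and 0.829% without it. In both lists the control lay below all 3 libraries with ADPRC. After TCTP the translation list was led by FBR12 (AT1G26630, which overlaps AT1G26640), of initiation factor 5A, with 978, 971 and 985 CPM with ADPRC and 991 CPM without it. The elongation factor gene AT5G60390 (which overlaps AT5G60400) had 785, 871 and 809 CPM with ADPRC and 676 CPM without it. The ribosomal protein gene RPS15A (AT1G07770) had 856, 880 and 822 CPM with ADPRC and 807 CPM without it, RPS5A (AT3G11940) had 743, 748 and 679 CPM against 633 CPM, and RP1 (AT1G43170) had 574, 625 and 491 CPM against 499 CPM. Of the 5 genes given beside TCTP the control lay below the libraries with ADPRC in 3, within them in RP1 and above them in FBR12.

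RNA that lacks a long poly(A) tail was rare. The 4 annotated nuclear ribosomal RNA genes, a list added after values had been seen, held 0.186%, 0.178% and 0.147% of reads with ADPRC and 0.147% without it. Plastid-encoded IDs, 68 in number, held 0.0362%, 0.0520% and 0.0447% with ADPRC and 0.0324% without it. The 91 mitochondrion-encoded IDs held 0.0825%, 0.100% and 0.0895% with ADPRC and 0.0681% without it. The control was the lowest library in all 3 of these lists, for ribosomal RNA by less than the digits printed, as it was for the ribosomal protein genes. Whether the composition of the poly(A) preparations had a part in these differences was not tested.

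Besides the green tissue genes above, root genes were read, and genes of seed storage and of flowers were at or near 0. The 6 root genes held 0.357%, 0.298% and 0.331% of reads with ADPRC and 0.298% without it. Most of this came from PYK10 (AT3G09260, which overlaps AT3G09250), a beta-glucosidase of endoplasmic reticulum bodies in root and hypocotyl, with 3103, 2500 and 2754 CPM with ADPRC and 2510 CPM without it. For this gene the control lay within the libraries with ADPRC. The water channel gene TIP2;2 (AT4G17340) had 354, 376 and 420 CPM with ADPRC and 377 CPM without it. Of the 9 seed storage genes 7 had any read, led by the cruciferin gene CRA1 (AT5G44120) with 5.29, 3.23 and 3.57 CPM with ADPRC and 4.60 CPM without it. In the control this list had 7 reads in all. The flower and pollen list had 3 of its 7 genes in the files and 4 reads in the control.

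Stress and housekeeping genes filled small shares. The 4 listed metallothionein genes, of metal-binding proteins, held 0.722%, 0.695% and 0.710% of reads with ADPRC and 0.774% without it. MT2B (AT5G02380) had 4131, 4062 and 4046 CPM with ADPRC and 4373 CPM without it, and MT3 (AT3G15353, which overlaps AT3G15352 and AT3G03105) had 2249, 2055 and 2148 CPM against 2558 CPM. For both genes the control lay above the libraries with ADPRC. The 16 genes used as references in expression studies held 0.870%, 0.864% and 0.862% with ADPRC and 0.811% without it. The polyubiquitin gene UBQ10 (AT4G05320) had 2072, 1906 and 2157 CPM with ADPRC and 2130 CPM without it, and the glycolysis gene GAPC2 (AT1G13440) had 1388, 1533 and 1555 CPM against 1228 CPM. For UBQ10 the control lay within the range of the libraries with ADPRC, and for GAPC2 below it. The 5 genes of myrosinases and endoplasmic reticulum bodies, PYK10 among them, held 0.368%, 0.308% and 0.339% with ADPRC and 0.322% without it. The myrosinase gene TGG1 (AT5G26000) had 489, 459 and 511 CPM with ADPRC and 568 CPM without it.

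The 12 cold and dehydration genes held 0.117% ± 0.00763 of reads with ADPRC (SD, n = 3) and 0.116% without it. Among them ERD14 (AT1G76180), a dehydrin gene, had 389, 320 and 322 CPM with ADPRC and 315 CPM without it. The 10 touch, wound and early stress genes varied between replicates, with 0.0513%, 0.0423% and 0.0222% of reads with ADPRC and 0.0363% without it. TCH4 (AT5G57560), a touch-induced xyloglucan enzyme gene, had 151, 82.4 and 46.5 CPM with ADPRC and 82.8 CPM without it. STZ (AT1G27730), a zinc finger gene of the stress response, had 79.3, 90.5 and 5.36 CPM with ADPRC and 43.7 CPM without it. Replicate 3 with ADPRC was the lowest library in this list and in both genes, and the control lay within the 3 libraries with ADPRC.

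Low shares were also found for 2 regulatory lists. The 9 circadian clock genes held 0.0161%, 0.0183% and 0.0159% of reads with ADPRC and 0.0228% without it, which is 99 reads in the control. The morning clock gene LHY (AT1G01060) had 76.7, 96.9 and 71.5 CPM with ADPRC and 92.0 CPM without it, and its partner CCA1 (AT2G46830) had 37.0, 33.9 and 32.2 CPM against 50.6 CPM. LHY overlapped between the groups and CCA1 was higher in the control than in each library with ADPRC. The 8 genes of NAD cap removal and decapping held 0.0111%, 0.0118% and 0.0113% with ADPRC and 0.00874% without it, 38 reads in the control. NUDT7 (AT4G12720), a nudix hydrolase gene, had 18.5, 32.3 and 21.4 CPM with ADPRC and 29.9 CPM without it. NUDX19 (AT5G20070), also a nudix hydrolase gene, had 21.1, 24.2 and 28.6 CPM with ADPRC and 11.5 CPM without it, and DCP1 (AT1G08370), a decapping gene, had 21.1, 19.4 and 19.7 CPM against 16.1 CPM. The control lay below the libraries with ADPRC for NUDX19 and DCP1, on 5 and 7 reads.

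**Figure D2:**
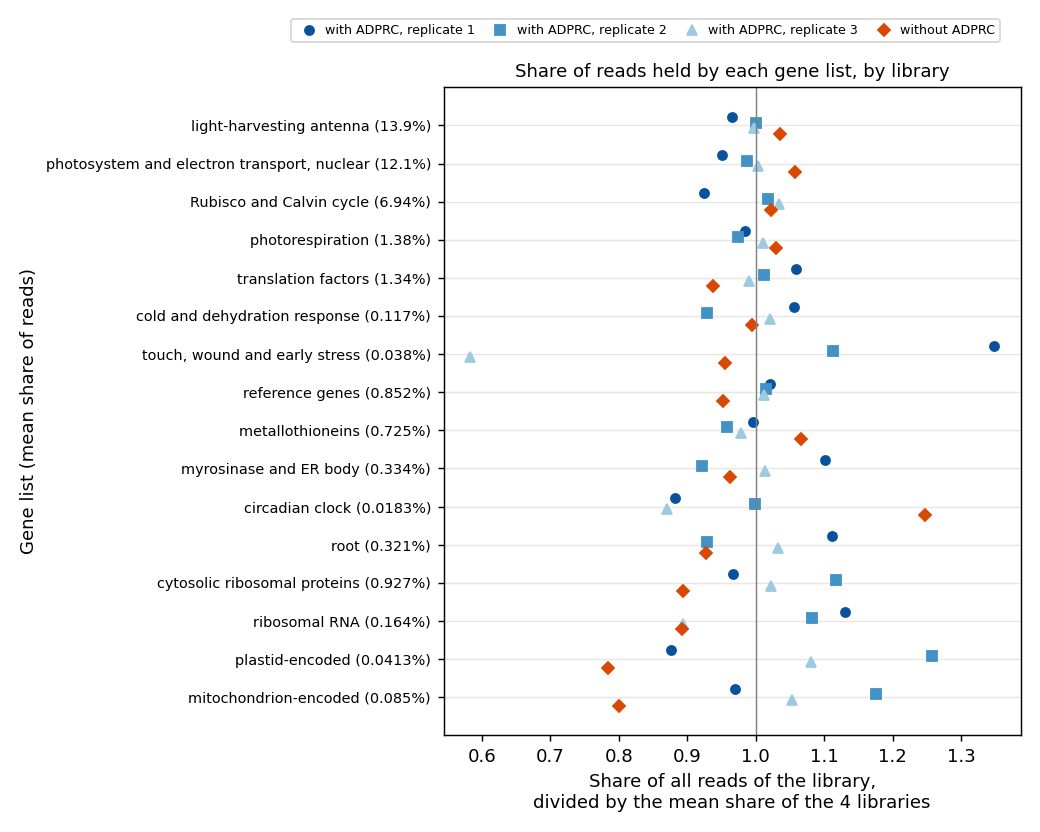
Share of all reads held by each gene list in each library, divided by the mean share of the 4 libraries, which is given in percent after the name of the list; the axis does not start at 0. Blue symbols are the 3 libraries with ADPRC and orange diamonds the library without it. The 16 lists with at least 90 reads in the control are shown. The antenna, photosystem and metallothionein lists have the control at the right, and the ribosomal protein, plastid and mitochondrial lists have it at the left.

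Over the 18 lists other than ribosomal RNA the control lay above all 3 libraries with ADPRC in 7, below them in 7 and within their range in 4. For the 5 largest lists the mean with ADPRC was 0.954, 0.927, 0.970, 0.961 and 1.09 times the control. The other lists with at least 90 reads in the control ran from 0.736 times for the circadian clock to 1.33 times for mitochondrion-encoded and 1.37 times for plastid-encoded IDs. The lists with fewer reads in the control lay at 1.30 times for NAD cap removal and decapping, 0.680 times for seed storage and 0.395 times for flower and pollen, the last on 4 reads. The shares of a library sum to the whole, so a higher share of some lists comes with a lower share of others.

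Whether the reaction alone shifts the transcriptome was then asked gene by gene, with limma on log2(CPM + 2.04) over the 8205 genes whose mean of the 2 group means was 10 CPM or more. The control was assumed to vary like the 3 libraries with ADPRC. Of these genes 1 was called higher with ADPRC and 0 lower at an adjusted p under 0.05, which is 0.0122% of those tested. Without adjustment 439 genes (5.35%) had p under 0.05. The count models edgeR and DESeq2 on the recovered reads called 0 genes, with 366 and 19 at an unadjusted p under 0.05. Without replicate 1 with ADPRC limma called 10 genes, all higher, and without replicate 2 or replicate 3 it called 0.

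The gene called was LAX3 (AT1G77690), which encodes a carrier that brings auxin into the cell. It had 23.8, 27.5 and 34.0 CPM with ADPRC, which are 9, 17 and 19 reads, and 2.30 CPM without it, which is 1 read. LAX3 thus passed the filter of 10 CPM through the libraries with ADPRC alone, and the call rests on 1 read in 1 control library. The log2 fold change was 2.80 (SE 0.52, limma adjusted p = 0.0342), with a 95% interval of 1.74 to 3.85. Over pooled reads the ratio of with to without ADPRC was 12.6, with an exact interval of 2.14 to 507 for counting error only. The groups did not overlap, and the value without ADPRC lay below the level that a count of 0 allows. The adjusted p was 0.444 in edgeR and 1.0 in DESeq2, 0.244 in limma without replicate 2 and 0.166 without replicate 3, and over all alternatives run it ranged from 0.00169 to 1.0. In enriched poly(A) libraries, which had 6 to 33 reads of it, LAX3 had 16.2, 20.5 and 26.7 CPM with ADPRC and 15.4, 17.3 and 12.7 CPM without it. There the libraries with and without ADPRC overlapped, and all 6 lay above the unenriched control.

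**Figure D3:**
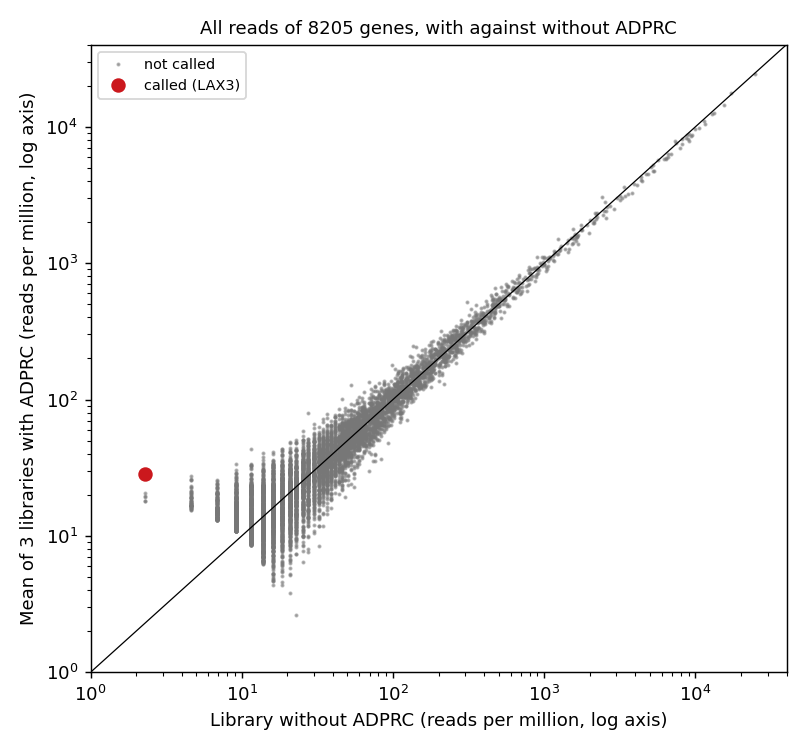
Mean of the 3 libraries with ADPRC against the library without it for the 8205 genes tested, in CPM, both axes logarithmic. Each point is 1 gene, the line marks equal values, and the larger red point is LAX3. The points close in on the line as the level rises, and LAX3 stands at 28.4 against 2.30 CPM; columns at the lower left are genes with few whole reads in the control.

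How large a shift could have been missed depended on the level of the gene. Levels here are again the mean of the 2 group means. For each of the 115 genes at 1000 CPM or more the whole 95% interval of the fold change lay within 2-fold in either direction, with log2 fold changes from -0.27 to 0.33. Of the 1298 genes at 100 CPM or more 1268 (97.7%) had their whole interval within 2-fold, and 0 had a log2 fold change beyond 1 in size. Of all 8205 genes 3058 (37.3%) had such an interval, and 413 had a log2 fold change beyond 1 in size. For genes at 10 to 30 CPM only 6.09% of 4386 intervals lay within 2-fold, so that for most of them a 2-fold shift was not detectable at this depth. The median log2 fold change over all genes was -0.02. Centring the libraries on the median of genes with reads in all 4 moved it to -0.16, and changes below are given on the uncentred scale.

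A control that lies outside the range of 3 libraries is common by position alone. Over the 8205 genes tested the control was found above in 24.5% and below in 26.5%. Among the 115 genes at 1000 CPM or more it lay above in 46 and below in 11. The abundant genes thus had the control on top more often, and below less often, than all genes tested; this difference between levels was not tested.

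The genes with the largest differences that were not called show the size of what remained below the threshold. By rule these were, in each direction, the 10 genes with the largest fold change among those whose 3 values with ADPRC lay all above or all below the control and whose higher group averaged 100 CPM or more. Since the rule required groups that do not overlap, that they do not overlap is no result. COB (AT5G60920), which encodes the membrane-anchored protein COBRA of oriented cell expansion, had 148, 128 and 107 CPM with ADPRC and 52.9 CPM without it. Its log2 fold change was 1.23 (SE 0.27, limma adjusted p = 0.123). GSTU20 (AT1G78370), a glutathione S-transferase gene, had 225, 258 and 256 CPM with ADPRC and 136 CPM without it (0.85, SE 0.21, limma adjusted p = 0.267). In the enriched poly(A) libraries these genes did not show the same order. There COB had 79.1, 133 and 138 CPM with ADPRC and 89.7, 92.2 and 119 CPM without it, and GSTU20 had 233, 240 and 300 CPM with ADPRC and 323, 321 and 330 CPM without it. COB overlapped between the groups there, and GSTU20 had its lower values with ADPRC.

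Among the other genes with values above the control were the cell wall alpha-xylosidase gene XYL1 (AT1G68560), with 185, 111 and 109 CPM with ADPRC and 69.0 CPM without it, and the ribosomal protein gene RPS15AD (AT3G46040), with 103, 113 and 85.8 CPM against 46.0 CPM. The long noncoding RNA AT3G06355, which overlaps the annotated ribosomal RNA gene AT3G41979, had 484, 591 and 486 CPM with ADPRC and 308 CPM without it (log2 fold change 0.75, SE 0.17, limma adjusted p = 0.158). With array weights, which let the libraries differ in spread, limma called COB and AT3G06355 as well. In the enriched poly(A) libraries AT3G06355 had 37.4, 102 and 76.2 CPM with ADPRC and 87.2, 217 and 147 CPM without it. There it was lower with ADPRC in each replicate, though the groups overlapped. MT1C (AT1G07610), a metallothionein gene, had 262, 213 and 252 CPM with ADPRC and 143 CPM without it, and so lay opposite to MT2B and MT3. The plastid-encoded ATCG01180, NDPK3 (AT4G11010, a nucleoside diphosphate kinase gene), AZI1 (AT4G12470, a lipid transfer-like gene of defence priming) and the ribosomal protein gene RPS5B (AT2G37270) complete the 10. The limma adjusted p-values of the 10 ran from 0.123 to 0.766. In the enriched poly(A) libraries ATCG01180 had 69.8, 45.9 and 85.1 CPM with ADPRC and 108, 115 and 118 CPM without it, the opposite order. Of the 4 plastid-encoded IDs tested ATCG01180 had the highest log2 fold change in the unenriched libraries, at 0.82, and the lowest was 0.22. ATCG00950 had 0.23 (limma adjusted p = 0.961). How reads of similar plastid IDs were assigned is not given in the sources used, so the value of ATCG01180 alone is uncertain.

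On the other side AT3G16530 had 60.8, 77.5 and 73.3 CPM with ADPRC and 124 CPM without it (log2 fold change -0.81, SE 0.28, limma adjusted p = 0.697). AT3G22235 had 106, 144 and 141 CPM with ADPRC and 216 CPM without it (-0.74, SE 0.24, limma adjusted p = 0.648). The plastid dicarboxylate transporter gene DiT1 (AT5G12860, which overlaps AT5G12850) had 124, 123 and 164 CPM with ADPRC and 202 CPM without it. The myrosinase gene TGG2 (AT5G25980), of the enzymes that split glucosinolates, had 47.6, 92.1 and 80.4 CPM with ADPRC and 110 CPM without it. PBE1, SRG3, AT5G60680, AQI, AT5G03545 and AT3G17800 complete the 10, whose limma adjusted p-values ran from 0.648 to 0.930. The differences on this side were smaller than those on the other, with log2 fold changes of -0.51 to -0.81 against 0.72 to 1.23. The rule asked for 100 CPM in the higher group, which here is the single control and on the other side the mean with ADPRC. The 2 sides were thus not chosen alike, and no conclusion is drawn from their sizes.

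No gene of the lists was called in either direction, so each list is described by its median and by the position of the control. In the antenna list the median log2 fold change was -0.09 and the control lay above all 3 libraries with ADPRC in 11 of 20 genes. In the photosystem list it was -0.12, with the control above in 21 of 34 genes and below in 1. The Calvin cycle and photorespiration lists had medians of -0.03 and -0.08, the cold and dehydration list -0.12, the touch and wound list -0.18, the metallothionein list -0.10 and the myrosinase list -0.23. All genes tested had a median of -0.02, with the control above in 24.5% and below in 26.5%. Most genes of the antenna and photosystem lists stood at 1000 CPM or more, where the control lay above in 40% and below in 9.57%. Among lists on the other side, the ribosomal protein list had a median of 0.20, with the control below in 21 of the 35 genes tested and above in 0, and the translation factor list 0.19, with the control below in 13 of 17. The signs of the medians of the 4 photosynthesis and photorespiration lists and of these 2 lists were the same with quantile normalization, median centring and edgeR, but not the sizes. With quantile normalization the antenna median was 0.00 to the digits printed, so that its sign has no weight, and the photosystem median -0.06. With edgeR the touch and wound median was -0.02 and the myrosinase median -0.05, and with quantile normalization the myrosinase median was -0.12. With median centring the medians of ribosomal protein and translation factor genes were 0.06 and 0.05, against -0.16 over all genes. The reference gene median of 0.04 became -0.10 and the root median of 0.14 became 0.00 with that centring. The clock list, with 5 genes tested, had the lowest median at -0.53, and the list of NAD cap removal and decapping, with 6 tested, had 0.47. All 5 clock genes tested had a log2 fold change below 0, from -1.04 for GI (AT1G22770, on 16.1 CPM in the control) to -0.18 for LHY. Of all genes tested at 10 to 30 CPM 2359 of 4386 had one below 0, and at 30 to 100 CPM 1244 of 2521. The filter of 10 CPM can be passed through the control alone, so no conclusion is drawn from a low gene such as GI.

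Set against the differences among libraries with ADPRC, the control did not stand apart in the size of its differences. Over the 1298 genes at 100 CPM or more the median difference in level, as an absolute log2 ratio, was 0.18, 0.17 and 0.16 between replicates 1, 2 and 3 with ADPRC and the control. Between replicates with ADPRC it was 0.18 for 1 and 2, 0.18 for 1 and 3, and 0.13 for 2 and 3. The closest pair was thus replicates 2 and 3, and replicate 1 was as far from them as the control was. Pearson's r of the log2 levels across these genes was 0.981 to 0.982 between libraries with ADPRC and the control, and 0.976 to 0.986 among libraries with ADPRC (genes are not independent replicates). Among the 4360 genes at 10 to 30 CPM with reads in all 4 libraries, it was 0.200, 0.257 and 0.240 with the control and 0.394, 0.355 and 0.442 among libraries with ADPRC, so there the correlations with the control were all lower. In the mean that set these levels the control weighs as much as the 3 libraries with ADPRC together. A narrow range of such a mean can by itself lower the correlations with the control, so no conclusion is drawn from them. The median absolute log2 difference in that range was 0.51 to 0.54 with the control and 0.47 to 0.56 among libraries with ADPRC. Over the 1298 genes at 100 CPM or more no pair matched within sampling noise. The chi-square there was 1.83 to 2.81 per gene, where counting error alone gives about 1. For genes at 10 to 30 CPM it was 1.01 to 1.08, close to counting error alone. On the genes at 100 CPM or more no library was counted as a repeat of another.

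**Figure D4:**
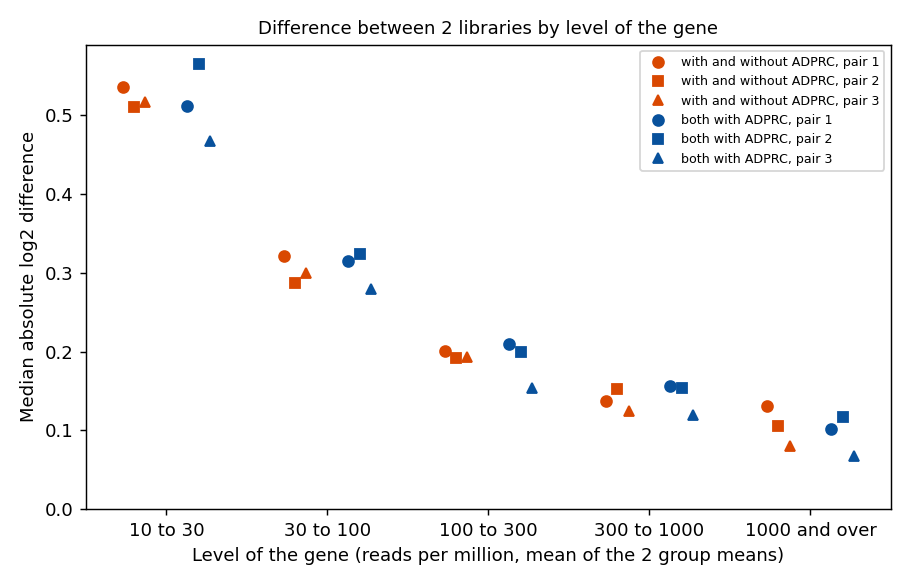
Median absolute log2 difference between 2 libraries for genes in 5 ranges of level, in CPM. Orange symbols are the pairs of replicates 1, 2 and 3 with ADPRC with the control, and blue symbols are the pairs 1 and 2, 1 and 3, and 2 and 3 of libraries with ADPRC. The orange and blue symbols overlap in every range, and the difference falls as the level rises.

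The tagged reads differed far more between the groups. They made up 0.586%, 0.743% and 0.546% of reads with ADPRC, which are 2218, 4599 and 3058 reads, and 0.00207% without it, which are 9 reads (95% Wilson interval 0.00109% to 0.00393%). A transcriptome in which under 1% of the reads are tagged changes little when they are left out: with untagged reads only, limma called 1 gene of 8205, LAX3 again.

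RBCS3B had most tagged reads, with 344, 493 and 391 tagged CPM with ADPRC and no tagged read without it. RBCS1A had 124, 228 and 170 tagged CPM and RBCS2B 127, 163 and 164 tagged CPM with ADPRC, and neither had a tagged read in the control. A count of 0 there allows up to 6.90 tagged CPM, and all 3 genes lay above it in each library with ADPRC. The genes of this paragraph were picked by their tagged level with ADPRC, and the control had 9 tagged reads in all. That they stand above the control is therefore no result. The photosystem II gene PSBW (AT2G30570) had 135, 152 and 150 tagged CPM with ADPRC and 2.30 tagged CPM, 1 read, without it. Over pooled reads that is a ratio of 63.9, with an exact interval of 11.4 to 2536 for counting error only. Among the genes that follow, AT2G45180 had 122, 168 and 64.3 tagged CPM with ADPRC and PSBR had 103, 124 and 50.04, each with replicate 3 lowest and none in the control. The 10 genes with most tagged reads were completed by PSBX, DRT112, PSAO (AT1G08380, of photosystem I) and FED A (ferredoxin). In order of all reads these 10 genes stood between the second place, of RBCS1A, and the place 35, of FED A. CAB1, first in all reads, was not among them.

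**Figure D5:**
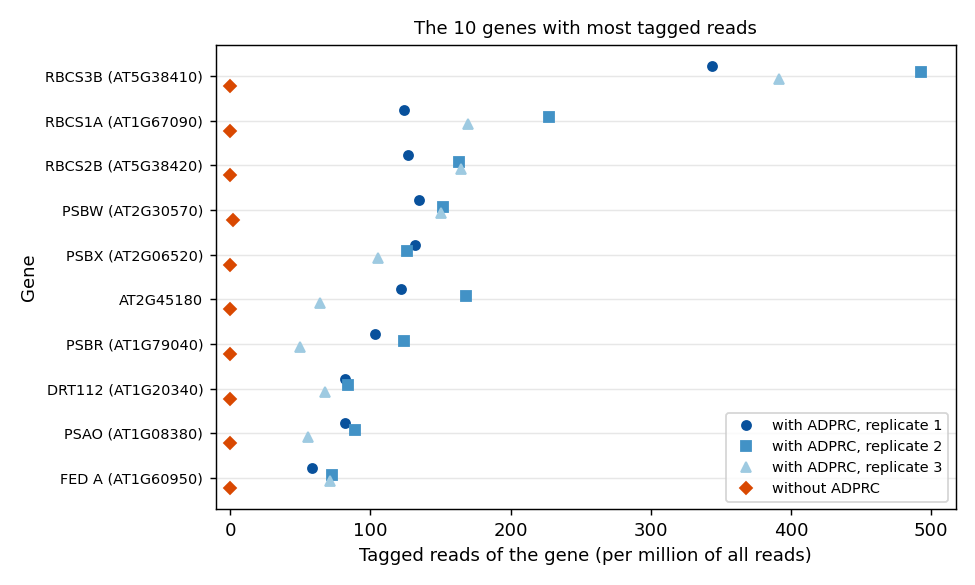
Tagged reads of the 10 genes with the highest mean with ADPRC, in CPM, on a linear axis. Blue symbols are the 3 libraries with ADPRC and orange diamonds the library without it. RBCS3B stands at 344 to 493 with ADPRC, and the control is at 0 for 9 of the 10 genes and at 2.30 for PSBW.

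A tagged read was found for 2370 genes in any library with ADPRC and for 326 genes in all 3. Of the 86 genes with a mean of the 2 group means of 5 tagged CPM or more, limma called 83 higher with ADPRC (96.5%) and 0 lower. Genes could pass that filter through the libraries with ADPRC alone, and the control had 9 tagged reads in all, so the count says little beyond those 9 reads. It fell to 30 with median centring, which rested on 5 genes, and to 5 with quantile normalization (3 higher and 2 lower).

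The 9 tagged reads of the control fell on 9 genes, with 1 read each. They were the antenna genes CAB3 (AT1G29910) and CAB2 (AT1G29920), the photosystem II genes PSBW and PSBTN (AT3G21055), DI19 (AT1G56280), PLAT1 (AT4G39730), the thionin gene THI2.2 (AT5G36910), AT2G32090 and AT2G41945. Of these 7 had a tagged read in at least 1 library with ADPRC and 5 in all 3. For CAB2 these were 7, 13 and 12 tagged reads with ADPRC against 1 without it, and for DI19 they were 2, 2 and 2 against 1. AT2G32090 and AT2G41945 had no tagged read with ADPRC, and 51 and 3 reads of any kind in the control. Of the 10 genes with most tagged reads, 9 had none in the control. With so few tagged reads in the control, this says little.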

How the data were processed

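Poly(A) RNA was read on a Nanopore instrument by direct RNA sequencing, per the labels' protocols. The files deposited by the authors are 2 tables, of tagged reads and of all reads, whose names call the unit TPM. In both tables the values, as deposited, behave as CPM of all reads of the library: each of the 65172 and 3539 values above 0 of the 4 libraries was a whole multiple of 1 read, within 0.01 read (100%), and no length correction was present. How bases were called, reads aligned and tags recognised, and the genome build and use of strand, is not given in the sources used.

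All values were grouped by the labels. Of the 22338 IDs in the table of all reads, 22084 were matched to symbols, biotypes and overlaps of the TAIR10.1 annotation, and 5739 overlap another listed gene; 1 row that names no gene held no reads here. Tests used limma 3.58.1 under R 4.3.3 (lmFit, then eBayes with a trend; two-sided p-values) on log2(CPM + 2.04), where the pseudocount is the median over the 4 libraries of the smallest value above 0, so a fold change understates that of low genes. Benjamini-Hochberg adjustment ran over all genes tested. Genes at 10 CPM (all reads) or 5 CPM (tagged reads) in the mean of the 2 group means were tested, and edgeR 4.0.16 and DESeq2 1.42.0 ran on the recovered reads. The fit was also run on simulated data in which the control varied like the libraries with ADPRC, so that assumption was not checked.

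Named genes were the 20 most abundant, the 10 most different in each direction as described, the leading 3 of each list (examples are given), those with a tagged read in the control and the 10 most tagged; LHCB4.3, FBA2, GI and the family members given beside them are further examples chosen after values were seen. The members and lists were chosen with earlier results of these data known. Alternatives were another pseudocount, 3 other filters, quantile normalization, median centring, edgeR, DESeq2, each replicate left out, the 10 poly(A) libraries in a single fit, untagged reads only and, added after seeing the data, array weights, the ribosomal RNA list and edgeR on tagged reads with all reads as library size.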

Additional observations from a re-analysis of the deposited data

How the results depend on the processing

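The count of genes called in all reads, 1 of 8205, rested on LAX3 and was 0 with the larger pseudocount, with no filter, with quantile normalization, with median centring, with edgeR or DESeq2, and at a filter of 100 CPM, which leaves LAX3 out. It was 8 for genes above 0 in 3 of the 4 libraries and 4 with array weights, all higher. A gene can pass the former filter through the 3 libraries with ADPRC alone. Leaving out a replicate with ADPRC gave 0 to 10, with 10 without replicate 1 and 0 without replicate 2 or 3. The count stayed at 1 with the 10 poly(A) libraries in the fit and with untagged reads only. Over 78 named genes and 1069 values under alternatives, 1053 kept their direction or stayed below the threshold, 8 lost a call (all LAX3), 8 passed the threshold (COB, GSTU20, ATCG01180 and AT3G06355) and 0 called values turned. The sign differed in 34 values of 21 genes that were not called. The count of tagged genes, 83 of 86, was 324 of 326 for genes above 0 in 3 libraries, 5 with quantile normalization, 30 with median centring, 0 with edgeR and 1 with DESeq2, both of which scale by tagged reads, 9 in the control, and 84 with edgeR on all reads as library size. It was 77 to 81 without a replicate, and 75 and 112 (of 2372) with the larger pseudocount and no filter. Quantile normalization turned tagged PSBW to a log2 fold change of -0.20 (limma adjusted p = 0.641); the cause was not tested. None of the 36 shares of gene lists under other denominators moved by more than 1 SD, nor did the share of tagged reads over nuclear reads, 0.626%. These denominators leave out only organelle reads or tagged reads, under 1% of each library, so the shares could hardly move. No paired analysis was possible because the library without ADPRC carries no replicate number. Depth limits genes below 100 CPM, and 1 control library leaves its own spread unmeasured.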
